A study of Schizosaccharomyces pombe with 15 samples.

Results

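Among the U6 small nuclear RNA ends read in fission yeast, Schizosaccharomyces pombe, a minority carried a short tail that held at least one C or G. These ends start with a run of Us, continue with a tail of 1 to 14 nt after that run and hold no undetermined base. Another 414 reads with at least 8 Us followed by the next genomic bases were left out as readthrough. The chosen ends made up 26173 of 77768 distinct ends and 417832 of 22706490 reads, or 1.84% of reads. Of these, 85871 reads in 15 distinct ends carried nothing but a single C after the Us. They are given apart as lone-C ends, because the ligated 3′ adapter itself begins with a C, so 1 untrimmed adapter base would give the same read. The remaining 331961 reads in 26158 distinct ends are called C/G tails here.

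U6 is the RNA at the catalytic core of the spliceosome. RNA polymerase III transcribes it and stops in a run of Ts, which leaves a U tail that exonucleases shorten and that nucleotidyltransferases can extend with Us or As. CCA is known as the end that the CCA-adding enzyme puts on tRNAs, where it is built 1 base at a time.

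Total RNA of log-phase cells grown at 30 °C was ligated to the adapter, amplified with a U6 primer and sequenced, in 15 libraries that gave 19 files. The untagged strains were mpn1Δ, mpn1Δrrp6Δ, cid14Δmpn1Δ, rrp6Δ, cid14Δ, cid11Δ, cid12Δ, cid16Δ and wt. Libraries of rrp6Δ and wt were also made without polynucleotide kinase (PNK), an enzyme that removes 3′ phosphates that block ligation. In the tagged strains mpn1Δ tU6-C36A, mpn1Δ tU6wt, tU6-C36A and tU6-wt, a tagged U6 was present beside the endogenous one, and each form had its own file. The gene mpn1 encodes the fission yeast relative of the U6-trimming exoribonuclease USB1, and rrp6 encodes an exonuclease bound to the exosome in the nucleus. The gene cid14 encodes the poly(A) polymerase of the TRAMP complex, and cid11, cid12 and cid16 encode other nucleotidyltransferases. Every strain or treatment had 1 library, so a difference between single libraries has no replicate check, and U6 ends cannot show whether the named gene was deleted.

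The encoded end lies on the minus strand of the ASM294v3 assembly at chrI:2562252-2562294. It is printed here 5′ to 3′ with the run of 9 Ts in capitals, to show that no C or G is encoded after fewer than 9 Us.
snu6 end: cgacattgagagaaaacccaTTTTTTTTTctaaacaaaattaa
Common short C/G tails of the untagged strains included a U run, with or without A, followed by CA, CCA, C or G, and a U run followed by CT. Examples are shown with the U run as t and the tail in capitals.
5 Us and CA: tttttCA
4 Us and CA: ttttCA
6 Us and CA: ttttttCA
5 Us, A and CA: tttttACA
5 Us, A and CCA: tttttACCA
5 Us, A and C: tttttAC
5 Us and G: tttttG
6 Us and G: ttttttG
3 Us and CT: tttCT
The lone-C ends that held most reads had 4 or 5 Us.
4 Us and C: ttttC
5 Us and C: tttttC
Some of the commoner longer tails are printed next.
tail in 12 files: tttttGGGGGGCTCATG
tail in mpn1Δ tU6-C36A, unmatched: tttttAGGTCTCTTGT
tail in mpn1Δ tU6-C36A, a piece of 28S rRNA: tttttGTTTCCCTCAGG
tail in mpn1Δ tU6wt: ttttttCGCACCGGGCGTGC
tail in tU6-wt, a piece of 28S rRNA: ttttttGGGACTGAGGACTG

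The files differed in ways that the labels do not name, and these bear on all that follows. Ends with an undetermined base, N, made up at most 0.000142% of reads in 7 untagged libraries, called few-N here. They made up 0.0217% to 0.0244% in cid11Δ, cid12Δ, cid16Δ and wt without PNK, called N-richer. The tagged strains lay between, at 0.00249% to 0.00598%. Reads with an end sequence numbered 440038 to 1159254 in the few-N libraries, 1379252 to 3966962 in the N-richer ones and 408281 to 1215665 in those of the tagged strains. C/G tails averaged 2.99 to 3.63 nt in the few-N libraries, 4.13 to 7.70 nt in the N-richer ones and 3.93 to 8.64 nt in the tagged strains. G made up 47.8% to 52.0% of tail bases in cid11Δ, cid12Δ and cid16Δ, against 24.4% in wt without PNK, of the same N-richer set, and 14.01% to 22.1% in the few-N libraries. As no PNK-treated wt is in the N-richer set, genotype, PNK and the set of libraries cannot be told apart for those 3 deletions. The files of tagged strains held only 167 to 375 distinct ends with a C/G tail or lone C, and the 10 commonest C/G tails held 60.6% to 86.1% of their C/G-tail reads. All shares below carry exact (Clopper-Pearson) 95% intervals where given. As PCR products without molecular tags were counted, they cover counting error only.

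Within the few-N libraries, C/G tails were commonest in the strains without cid14 and least common in wt. Their share was 2.89% of reads (2.84 to 2.94) in cid14Δmpn1Δ, 2.70% (2.66 to 2.75) in cid14Δ and 2.45% (2.41 to 2.48) in mpn1Δrrp6Δ. It was 2.11% (2.08 to 2.15) in rrp6Δ, 1.94% (1.92 to 1.97) in mpn1Δ and 1.48% (1.46 to 1.51) in wt, and rrp6Δ without PNK had 2.70% (2.66 to 2.74). Apart from the near-equal cid14Δ and rrp6Δ without PNK, the intervals do not overlap, but they say nothing of the spread between cultures. In the N-richer libraries the share was 0.516% in cid11Δ, 1.99% in cid12Δ, 0.538% in cid16Δ and 1.31% in wt without PNK. By share cid12Δ lay within the range of the few-N libraries, and its tails were the longest of the untagged strains at 7.70 nt.

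In the few-N libraries most tails were short and of few kinds. Tails of 1 to 3 nt made up 70.8% to 78.6% of C/G-tail reads. A U run or adenylated end followed by exactly CA, CCA or G, or an adenylated end followed by C, accounted for 58.4% to 75.1% of them. In the N-richer libraries that share was 12.3% to 46.2%, and in the files of tagged strains 16.6% to 69.4%. The end tttttCA was the commonest C/G tail in wt, with 2385 reads. It differs by 1 base from ttttttA, 6 Us and an A, which had 6877 reads in wt. In mpn1Δ the same pair stood at 716 and 267456 reads. A was the commonest last base in every few-N library, from 45.6% of C/G-tail reads in mpn1Δ to 73.9% in cid14Δ.

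In the few-N libraries A made up 30.7% to 43.2% of the bases of C/G tails, C 24.9% to 37.9% and U 10.8% to 17.5%. In wt without PNK A made up 34.4%, C 18.5%, G 24.4% and U 22.7%. In the tagged strains A made up 12.5% to 33.4%, C 15.1% to 34.0%, G 32.6% to 48.7% and U 8.99% to 28.9%. The C share was 37.9% in cid14Δ and 29.7% in wt, and 31.98% in cid14Δmpn1Δ and 24.9% in mpn1Δ. The G share was 14.5% in cid14Δ and 22.1% in wt, and 14.01% in cid14Δmpn1Δ and 21.5% in mpn1Δ. C was thus higher and G lower in the library without cid14 of both pairs. By length, 2-nt tails were the largest class in cid14Δ, mpn1Δ and wt, with 55.6%, 31.6% and 49.3% of C/G-tail reads. Tails of 3 nt came next, with 18.1% in cid14Δ, 27.8% in mpn1Δ and 15.3% in wt. Most tails in these libraries were thus shorter than 4 nt. The first base was C in 73.4% of C/G tails in cid14Δ and 60.5% in wt, and in 23.0% in cid14Δmpn1Δ and 14.6% in mpn1Δ. In the N-richer cid11Δ, cid12Δ and cid16Δ it was most often G, in 45.9%, 51.7% and 48.5%, against 30.3% in wt without PNK and 24.2% in wt. Tails of exactly 14 nt held 10244 reads, and 24974 reads with tails of 15 nt lay just outside the limit.

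Ends in CA and CCA were higher where cid14 was deleted, in both backgrounds. CA, directly after the U run or after As, ended 1.38% of reads (1.34 to 1.41) in cid14Δ and 0.585% (0.569 to 0.601) in wt, a ratio of 2.35. It ended 1.14% (1.11 to 1.17) in cid14Δmpn1Δ and 0.509% (0.496 to 0.522) in mpn1Δ, a ratio of 2.24. CCA ended 0.316% in cid14Δ against 0.127% in wt, and 0.247% in cid14Δmpn1Δ against 0.0998% in mpn1Δ. Together CA and CCA made up 62.6% of C/G-tail reads in cid14Δ and 48.1% in wt. G alone ended 0.104% of reads in cid14Δ and 0.117% in wt, with overlapping intervals, and 0.332% in cid14Δmpn1Δ and 0.408% in mpn1Δ.

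The ends that carry CA differ between these strains, so the reads were also set against their parents, the same ends without the CA. Per 100 ends made of Us alone, there were 1.45 reads with CA in cid14Δ and 0.609 in wt, and 1.59 in cid14Δmpn1Δ and 0.836 in mpn1Δ. Per 100 adenylated ends, there were 1.37 in cid14Δ and 0.473 in wt, and 1.03 in cid14Δmpn1Δ and 0.444 in mpn1Δ. For U runs of 1 to 7 taken separately, the number was higher in cid14Δ than in wt at 7 of 7 lengths, and higher in cid14Δmpn1Δ than in mpn1Δ at 7 of 7. After adenylated ends it was likewise higher at 7 of 7 lengths in both comparisons, with few reads behind some. The lengths of a comparison come from the same 2 libraries and are not replicates. Deletion of rrp6 gave a similar count. In rrp6Δ against wt it was higher at 7 of 7 lengths after Us alone and 6 of 7 after adenylated ends. In mpn1Δrrp6Δ against mpn1Δ it was higher at 6 of 7 in each. In both cid14 comparisons the lone C moved the same way as CA. Its share was 0.604% in cid14Δ and 0.353% in wt, and 0.262% in cid14Δmpn1Δ and 0.194% in mpn1Δ.

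The example tttttCA held 0.489% of reads in cid14Δ against 0.278% in wt, and ttttCA held 0.259% against 0.0874%. The adenylated form tttttACA held 0.364% of reads in cid14Δmpn1Δ, the highest of all files, against 0.171% in mpn1Δ. The short end tCA held 0.166% in cid14Δ, against 0.0442% in wt.

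Counted end by end, among ends whose shares in the 2 libraries summed to at least 0.01% of reads, 23 of 50 C/G or lone-C ends were at least 2-fold higher in cid14Δ than in wt and 4 were at least 2-fold lower. Of all ends tested there, 27.3% were that much higher and 15.2% that much lower. In cid14Δmpn1Δ against mpn1Δ, 17 of 52 were higher and 4 lower, against 20% and 21% of all ends. The median log2 ratio of the C/G ends was 0.93 and 0.72 in these comparisons, and over all ends it was 0.44 and 0.27.

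Deletion of rrp6 went with a higher share of reads ending in CA and in G. CA ended 0.741% of reads in rrp6Δ against 0.585% in wt, and 0.666% in mpn1Δrrp6Δ against 0.509% in mpn1Δ, ratios of 1.27 and 1.31. G alone ended 0.313% of reads in rrp6Δ against 0.117% in wt, and 0.474% in mpn1Δrrp6Δ against 0.408% in mpn1Δ. Per 100 ends of 5 Us, tttttG had 0.429 reads in rrp6Δ and 0.0728 in wt. Per 100 ends of 5 Us and an A, the order turned, with 0.615 in rrp6Δ and 3.01 in wt. In mpn1Δrrp6Δ against mpn1Δ it was higher by both parents, at 2.95 against 2.43 and 0.467 against 0.382. GA, another 2-base ending, held 0.112% in rrp6Δ and 0.0315% in wt. By end, 19 of 47 C/G or lone-C ends were at least 2-fold higher in rrp6Δ than in wt, against 36.9% of all ends, and 4 were lower, against 8.11%. In mpn1Δrrp6Δ against mpn1Δ, 5 of 50 were higher and 2 lower, against 13.2% and 4.13% of all ends. These shares of C/G ends stood close to those over all ends.

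CA and CCA were scarce in the libraries of the other nucleotidyltransferase deletions. CA ended 0.0434% of reads in cid11Δ, 0.0699% in cid12Δ, 0.0359% in cid16Δ and 0.585% in wt. CCA ended 0.00250% in cid11Δ, 0.00391% in cid12Δ and 0.00208% in cid16Δ, against 0.127% in wt. Both endings were thus rarer in all 3 libraries. At least 2-fold lower ends numbered 23 of 29 in cid11Δ, 24 of 38 in cid12Δ and 22 of 27 in cid16Δ, where 61.4%, 42.7% and 60.7% of all ends were that much lower than in wt. Those higher were 1, 9 and 1, where 6.82%, 21.4% and 8.99% of all ends were. The wt library without PNK belongs to the same N-richer set, and it had CA on 0.271% of reads and CCA on 0.0167%. Against that library all 3 deletions were still lower in both endings. Low shares were not particular to these deletions. In the files of tagged strains CA ended 0.0171% (endogenous U6 of mpn1Δ tU6wt) to 0.245% of reads (endogenous U6 of tU6-wt). CCA ended from 0% in both files of mpn1Δ tU6wt to 0.0571% in tagged U6 of tU6-C36A. Every file of a tagged strain thus also lay below wt in both endings.

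Leaving out PNK had no common direction in CA and CCA. In rrp6Δ, CA stood at 0.904% of reads without PNK and 0.741% with it, within the few-N set. In wt it stood at 0.271% without PNK and 0.585% with it, and there the 2 libraries also differ in N content. G alone held a higher share without PNK in both strains, at 0.496% against 0.313% in rrp6Δ and at 0.293% against 0.117% in wt. Per 100 ends of 5 Us and an A, tttttG had 0.698 reads without PNK and 0.615 with it in rrp6Δ. In wt that order turned, with 1.98 without PNK and 3.01 with it. By end, 10 of 56 C/G or lone-C ends were at least 2-fold higher and 3 lower in rrp6Δ without PNK, where 14.6% and 5.11% of all ends were. In wt without PNK 13 of 43 were higher and 15 lower, where 71.6% and 13.5% of all ends were.

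C/G tails more often began with A in the libraries without mpn1, in 4 of 5 pairs. In mpn1Δ, 61.2% of C/G tails began with A, so that the C or G stood behind an adenylated end, against 15.3% in wt. The other pairs gave 60.02% in mpn1Δrrp6Δ and 39.0% in rrp6Δ, 60.7% in cid14Δmpn1Δ and 11.7% in cid14Δ, and 54.4% in mpn1Δ tU6wt and 16.9% in tU6-wt. In mpn1Δ tU6-C36A it was 38.8% and in tU6-C36A 40.2%, the only pair without a rise. That order depended on the tails counted. The end ttttATGCGCTGG alone held 1480 of the 5967 C/G-tail reads in endogenous U6 of tU6-C36A. With tails of 1 to 8 nt only, the shares were 38.3% in mpn1Δ tU6-C36A and 23.5% in tU6-C36A. In endogenous U6 of mpn1Δ tU6wt, the 5-nt end tttAC alone held 2274 of the 7130 C/G-tail reads. With 5-nt ends in C read without the C in these files, the shares were 33.0% in mpn1Δ tU6wt and 15.2% in tU6-wt. They were then 30.2% in mpn1Δ tU6-C36A and 39.0% in tU6-C36A. Over all PNK-treated libraries, endogenous U6, the share averaged 55.0% ± 9.45 (SD, n = 5) without mpn1 and 24.2% ± 10.5 (SD, n = 8) with it. A two-sided exact permutation test gave p = 0.00233, or 0.0140 after Benjamini-Hochberg adjustment over 6 outcomes. With tails ending in C left out, the difference was 19.4 points with an adjusted p = 0.159 by the exact permutation test. In that setting mpn1Δ tU6-C36A stood at 14.6% and tU6-C36A at 35.5%. With all C/G tails counted, the groups overlapped, since tU6-C36A and rrp6Δ lay above mpn1Δ tU6-C36A. As 5 background pairs the mean difference was 30.4 ± 20.8 percentage points, higher in 4 of 5 pairs, with an exact sign-flip p = 0.125, where 5 pairs allow no p below 0.0625.

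The few-N libraries alone gave 60.6% ± 0.599 (SD, n = 3) without mpn1 and 22.0% ± 14.8 (SD, n = 3) with it, with an exact permutation p = 0.1, the smallest that 3 against 3 allows. In the untagged libraries together the difference was 37.9 points, with an adjusted p = 0.0714 by the exact permutation test. In the tagged strains it was 18.0 points, with 2 libraries on each side and an adjusted p = 0.8 by the exact permutation test.

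All U6 ends were adenylated far more often in mpn1Δ, at 76.5% of reads against 4.55% in wt. These adenylated ends are the parents of the tails that begin with A. Set against them, there were 0.444 reads with CA per 100 adenylated ends in mpn1Δ and 0.473 in wt. For CCA the numbers were 0.103 in mpn1Δ and 0.355 in wt. After ends of Us alone, CA stood at 0.836 per 100 in mpn1Δ and 0.609 in wt, and CCA at 0.102 and 0.119. As a share of all reads, CA was lower without mpn1 in every pair, which has no test. It ended 0.509% in mpn1Δ and 0.585% in wt, 0.666% in mpn1Δrrp6Δ and 0.741% in rrp6Δ, and 1.14% in cid14Δmpn1Δ and 1.38% in cid14Δ. In endogenous U6 it ended 0.0171% in mpn1Δ tU6wt and 0.245% in tU6-wt, and 0.0254% in mpn1Δ tU6-C36A and 0.143% in tU6-C36A. The example tttttACA held 0.171% of reads in mpn1Δ and 0.00722% in wt, while tttttCA held 0.0618% in mpn1Δ and 0.278% in wt. The plain adenylated end tttttA, for comparison, had 406375 reads in mpn1Δ and 11434 in wt.

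None of the other 5 outcomes passed the permutation test over all PNK-treated libraries. The share of C/G tails averaged 1.95% ± 0.819 without mpn1 and 1.47% ± 0.773 with it (SD, n = 5 and 8, exact permutation p = 0.301, adjusted 0.362). Over the 5 pairs it differed by 0.213 ± 0.324 percentage points, higher in 4 of 5, with an exact sign-flip p = 0.25. The A share of tail bases was higher in 5 of 5 pairs, by 6.89 ± 3.21 points. The share of lone-C ends was lower in 5 of 5 pairs, with a difference of -0.896 ± 1.16 points. Both had an exact sign-flip p = 0.0625, adjusted 0.188, which this number of pairs cannot better. Per read of 5 Us alone, tttttC stood at 0.0131 in mpn1Δ and 0.00282 in wt. It stood at 0.0127 in mpn1Δrrp6Δ and 0.00404 in rrp6Δ, and at 0.0125 in cid14Δmpn1Δ and 0.00480 in cid14Δ. In endogenous U6 of the tagged strains it was lower without mpn1. It stood there at 0.0116 in mpn1Δ tU6wt and 0.0130 in tU6-wt, and at 0.0105 in mpn1Δ tU6-C36A and 0.0144 in tU6-C36A. The end tttttC differs by 1 base from tttttA too, and set against that end the order of mpn1Δ and wt turned. In mpn1Δ there were 835 reads of tttttC and 406375 of tttttA, and in wt 1334 and 11434. Mean tail length and the G share of tail bases differed in no common direction.

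By end, mpn1Δ and wt differed almost throughout. Of 49 C/G or lone-C ends, 24 were at least 2-fold higher in mpn1Δ and 20 lower, where 43.6% and 32.7% of all ends were. In cid14Δmpn1Δ against cid14Δ it was 24 higher and 26 lower of 56, where 43.6% and 40.6% of all ends were. In mpn1Δrrp6Δ against rrp6Δ it was 10 and 9 of 49, where 22% and 13.8% were.

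A single G behind the Us was commoner without mpn1. Suffix G, with or without As before it, ended 0.408% of reads in mpn1Δ and 0.117% in wt, 0.474% in mpn1Δrrp6Δ and 0.313% in rrp6Δ, and 0.332% in cid14Δmpn1Δ and 0.104% in cid14Δ. Endogenous U6 of the tagged strains had 0.527% in mpn1Δ tU6wt and 0.0391% in tU6-wt, and 0.229% in mpn1Δ tU6-C36A and 0.0197% in tU6-C36A. It was thus higher in 5 of 5 pairs, which was seen in the data first and has no test. The order depends on the parent chosen. Per 100 ends of 5 Us, the end tttttG had 2.43 reads in mpn1Δ and 0.0728 in wt. Per 100 ends of 5 Us and an A, from which tttttG also differs by 1 base, it had 0.382 in mpn1Δ and 3.01 in wt. Whether a misread final A adds to the G ends was not tested.

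Lone-C ends stood out in the endogenous files of the tagged strains. They held 0.870% of reads in mpn1Δ tU6-C36A, 1.24% in mpn1Δ tU6wt, 1.88% in tU6-C36A and 4.10% in tU6-wt. In the untagged libraries they held 0.113% (cid16Δ) to 0.604% (cid14Δ). The 4 endogenous files thus lay above every untagged library. In tagged U6 they held 0.0584% in mpn1Δ tU6-C36A, 0.0622% in mpn1Δ tU6wt, 1.33% in tU6-C36A and 0.0776% in tU6-wt. The tagged form was lower than the endogenous one in 4 of 4 strains, with a mean difference of -1.64 ± 1.61 points. The exact sign-flip p was 0.125, the smallest that 4 strains allow, and 0.75 after adjustment over 6 outcomes.

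In 3 of these 4 files most lone-C reads were ends that are 5 nt long with the C, and in endogenous U6 of tU6-C36A the 6-nt end tttttC was the commoner, with 6162 reads. In endogenous U6 of tU6-wt, ttttC had 17979 reads and the same end without C had 218. In tU6-C36A the numbers were 4259 and 51, in mpn1Δ tU6wt 4350 and 47, and in mpn1Δ tU6-C36A 3733 and 61. In wt, ttttC had 456 reads and 4 Us alone had 63148. The form with the C was the commoner one in those 4 files and the rarer one in wt. Adenylated ends showed the same, with 2274 reads of tttAC and 29 of its form without C in mpn1Δ tU6wt, against 10 and 1614 in wt. Over all ends of 4 nt, the endogenous files of tagged strains held 0.0114% to 0.0399% of reads, and every other file held 1.74% to 10.4%. Ends of 5 nt in C held 0.717% to 3.21% in those 4 files and 0.00514% to 0.143% in the others. The tttttC end, 6 nt long, held 1.18% of reads in tagged U6 of tU6-C36A and at most 0.0207% in the other tagged U6 files. With the C of 5-nt ends ignored, lone-C ends still held 1.12% of reads in endogenous U6 of tU6-C36A and 0.927% in that of tU6-wt. They then held 0.173% in mpn1Δ tU6wt and 0.244% in mpn1Δ tU6-C36A, within the range of the untagged libraries. The tagged form of tU6-C36A, at 1.33%, then lay above its endogenous form. What left the C on these ends was not tested.

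Some of the longer tails matched other RNAs, and in most files most reads matched none of those searched. The part of a tail from its first C or G on was searched where it was 10 to 14 nt long. Exact matches were sought to S. pombe U6 and to rRNA and tRNA of the nuclear chromosomes, the tRNAs with CCA added. Mitochondrial rRNA and tRNA were left out. A median of 26.3% of such reads per file, from 3.31% to 40.6%, matched rRNA in the sense direction, and at most 3.47% matched its antisense strand. The sense rRNA sequences hold 0.683% of all possible 10-mers, the shortest and most permissive length. Sense tRNA matched 0.966% to 29.6% of reads and antisense tRNA at most 0.434%. U6 itself matched at most 0.345% in sense, and antisense U6 up to 12.1%, in endogenous U6 of tU6-wt. No match was found for 42.5% to 90.2% of reads, and nothing else was searched.

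By molecule, 28S rRNA gave 67.5% of the rRNA-matched reads, 18S 21.0%, 5.8S 10.1% and 5S 1.33%. Of 1548 reads of 5.8S pieces, 53.2% ended at the last base of 5.8S rRNA. Another 631 were a single inner piece, bases 22 to 33, and tagged U6 of tU6-wt held 610 of those. The last 20 bases of that RNA are printed here with the commonest piece, bases 156 to 165 of 165, in capitals.
end of 5.8S rRNA: atgcctgtttGAGTGTCATT
This piece had 659 reads in 12 files. It was found in all 11 untagged libraries, with 0.0169% of reads in cid14Δ, 0.00977% in cid14Δmpn1Δ, 0.00819% in mpn1Δ and 0.00687% in wt. It had 0.01001% in rrp6Δ without PNK and 0.0133% in wt without PNK, where 184 reads were the most of any file. In cid11Δ, cid12Δ and cid16Δ it had 0.000394% to 0.000576%. In tagged strains it had 1 read, in tagged U6 of tU6-wt. No read of a 28S or 18S piece ended at that RNA's last base. Among 3442 tRNA-matched reads, 50.03% began at the first base of a tRNA and 16.2% ended at the last. Of the 1722 reads that began at the first base, 1066 were a single piece, bases 1 to 11 of a tRNA-Asn. Tagged U6 of mpn1Δ tU6wt held 1025 of those.

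Single tails decided much of the long class in the tagged strains. The 28S piece in tttttGTTTCCCTCAGG, bases 985 to 996 of 28S rRNA, had 1904 reads in tagged U6 of mpn1Δ tU6-C36A and 34 in its endogenous file, with 2 reads in cid12Δ and none elsewhere. The end ttttttCGCACCGGGCGTGC had 74 reads in tagged and 1211 in endogenous U6 of mpn1Δ tU6wt. The end tttttGGGGGGCTCATG had 1559 reads in tagged and 1043 in endogenous U6 of tU6-wt, and 390 in cid12Δ. It had no match in the RNAs searched. In cid12Δ the tails were rich in G, with tttttGTGGGGA on 759 reads there, 206 in cid16Δ, 142 in cid11Δ and 1 in wt.

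The tagged and endogenous files of one strain shared most of their commonest long tails. Of the tails of at least 10 nt with at least 50 reads in tagged U6, the endogenous file of the same strain held 11 of 12 in mpn1Δ tU6-C36A, 19 of 20 in mpn1Δ tU6wt, 13 of 13 in tU6-C36A and 17 of 18 in tU6-wt. The endogenous file of another strain held at most 3 of them. In the other direction the tagged file of the same strain held 3 of 3, 3 of 3, 10 of 10 and 13 of 13. The commonest long tails of a strain were thus mostly present in its other file too, where any read sufficed. These shared ends made up 1.85% to 20.7% of the distinct long tails of the other file. Read numbers differed: the commonest tails of tagged U6 in mpn1Δ tU6-C36A had 7353 reads there and 149 in the endogenous file. Such tails enter the comparisons that follow.

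C/G tails held 1.59% of reads in tagged U6 and 0.724% in endogenous U6 of mpn1Δ tU6-C36A, and 2.52% and 1.75% in mpn1Δ tU6wt. In tU6-C36A they held 2.07% and 1.06%, and in tU6-wt 1.04% and 1.33%. The tagged form was higher in 3 of 4 strains, by 0.591 ± 0.599 points, with an exact sign-flip p = 0.25, adjusted 0.75. None of the 6 outcomes could pass with 4 strains. By end, the tagged form had 20 of 32, 23 of 37, 29 of 48 and 19 of 45 C/G or lone-C ends at least 2-fold higher in these strains, where 57.9%, 54.7%, 64.5% and 54.6% of all ends were. It had 10, 13, 17 and 25 of them at least 2-fold lower, where 32.1%, 35.8%, 31.7% and 40.2% of all ends were.

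C36A tagged U6 was set against wild-type tagged U6 with and without mpn1. Without mpn1, C/G tails held 1.59% of reads in C36A and 2.52% in wild-type tagged U6, and with mpn1 they held 2.07% and 1.04%. The end ttttttG held 0.0871% of reads in C36A and 0.880% in wild-type tagged U6 without mpn1, and 0.261% and 0.00337% with it. By end, 18 of 42 C/G or lone-C ends were at least 2-fold higher in C36A without mpn1, against 42.3% of all ends, and 30 of 52 with mpn1, against 50%. Lower were 20 in each, against 45.1% of all ends without mpn1 and 43.8% with it. Each figure compares 1 file with 1 file.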

How the data were processed

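Each deposited file lists counts: the number of reads and the end sequence after the constant part of U6, unnormalized, per the labels and the file contents. The submitters' processing notes name CASAVA 1.8.2 and cutadapt. How reads were filtered, how tagged U6 was split from endogenous, and which build was used is not given in the sources used here. Tagged files were told by the word exogenous in their names. Lines without a sequence were left out of shares. If trimming left adapter bases, C ends are overstated.

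Ends were sorted in Python 3.11.15 with NumPy 2.4.6 and SciPy 1.17.1. Groups came from the titles, 1 library each, so p-values measure the spread between strains. Sign-flip and permutation tests were exact and two-sided, adjusted over 6 outcomes. The sorting and tests were tested on simulated data. The named ends are the 3 commonest C/G tails and the commonest lone-C end of each file, all with at least 0.2% of any file, and the commonest of each tail length. Members, outcomes and lists were chosen with earlier results of these data known. The CA, CCA, C, G and GA endings, their parents, the N sets, the rRNA and tRNA searches and the 4-nt comparison were chosen after values were seen.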

Additional observations from a re-analysis of the deposited data

Results flagged for a closer look

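In 24 combinations of 6 outcomes and 4 sets of libraries, a single file stood far from the rest of its set in 2. The lone-C share of 4.10% in endogenous U6 of tU6-wt lay far above the other 7 PNK-treated libraries with mpn1. The lone-C share of 1.33% in tagged U6 of tU6-C36A lay far above the tagged U6 of the other 3 strains. Chance marks about 1 in 20 sets this way.

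C36A against wild-type tagged U6 gave opposite signs without and with mpn1, among 36 combinations of contrasts and outcomes examined. The share of C/G tails differed by -0.928 percentage points without mpn1 and by 1.04 points with it. Mean tail length differed by 1.31 nt without mpn1 and by -1.54 nt with it. The A share of tail bases differed by -7.64 points without mpn1 and by 17.0 points with it. The differences between these effects were not tested, since each rests on 1 file a side.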

How the results depend on the processing

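The A-first share with and without mpn1, the only outcome that passed its test, kept its direction under every alternative run, and kept its side of the threshold without any 1 library (29.1 to 34.9 points) and with tagged U6 in place of endogenous (27.02 points). It no longer passed with tails ending in C left out (19.4 points, adjusted exact permutation p = 0.159), in untagged strains only (37.9), tagged strains only (18.0) or few-N untagged strains only (38.6).

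Results that had not passed changed sign as follows. Over the mpn1 pairs, the share of C/G tails differed by -0.135 points with tails ending in C left out and by -0.0530 with 1-substitution neighbours of ends 100 times as common left out. The G share of tail bases there was 4.91 points with tails of 1 to 8 nt and 1.43 without tails ending in C. Counting every end with 2 or more reads just once, the lone-C difference was 0.0511 points over pairs, 0.260 over all libraries and 0.00894 for tagged against endogenous U6, and the C/G share over all libraries was -3.03. Without tU6-wt the lone-C difference over all libraries was 0.0483 (range without 1 library -0.573 to 0.0483). For tagged against endogenous U6, first-base A was 12.2 points without tails ending in C, 0.541 without adapter-like tails, 7.74 with 5-nt ends in C read without the C, and -4.81 to 3.29 without 1 strain. Mean tail length was -0.515 nt counted per end and -0.162 to 1.20 without 1 strain. The G share was 17.8 for tails of 1 to 8 nt and -6.28 to 1.21 without 1 strain. The A share was -0.911 counted per end and -2.69 for tails of 1 to 8 nt.

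The median share of C/G tails over files, 1.75%, became 1.54% for ends with at least 10 reads, 40.6% counted per end, 1.19% for tails of 1 to 8 nt, 1.49% without tails ending in C, 1.38% without neighbours and 1.59% with 5-nt ends in C read without the C. The median lone-C share, 0.262%, became 0.773% counted per end, 0.0504% without neighbours and 0.240% with 5-nt ends in C read without the C. At 3-fold, the C/G ends past the limit were 69.4% in mpn1Δ against wt, 4.0% in mpn1Δrrp6Δ against mpn1Δ, 24.0% in cid14Δ against wt, 23.1% in cid14Δmpn1Δ against mpn1Δ, 30.2% in wt and 5.36% in rrp6Δ without PNK against with it. With summed shares of at least 0.002% they were 84.8% for tagged U6 in mpn1Δ tU6wt, 35.3% in mpn1Δrrp6Δ against mpn1Δ and 44.4% in rrp6Δ without PNK. No share over all ends was computed at these settings, so these values cannot be read against it. The cause of these changes was not tested. The 5-nt, few-N and median alternatives were chosen after seeing the data. No paired analysis was possible because of 1 library per group, as far as a replicate block goes; the pairs tested are of strain background or of U6 form. A count of 0 allows a share of up to 0.000735% in the shallowest file.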
